A study of Mus musculus with 30 samples.

Results

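The genes described here encode the subunits, activators and assembly chaperones of the proteasome. They were chosen by symbol alone: every gene whose name runs from Psma to Psmg followed by a number, with pseudogene names left out, which gave 49 of the 55291 gene names in the washout counts. The same 49 names stood in each of the 4 time-course gene tables of 21859 rows. The proteasome is the barrel-shaped protease that degrades proteins carrying ubiquitin chains. Its 20S core stacks rings of alpha subunits (Psma genes), which gate the entrance, on rings of beta subunits (Psmb genes), which hold the cutting sites. A 19S cap with an ATPase ring (Psmc genes) and scaffold, receptor and lid subunits (Psmd genes) binds and unfolds substrates, the Psme genes encode alternative activators, and the Psmg genes encode chaperones that build the core. Many subunit genes are known to rise together when proteasome activity falls, through the transcription factor NRF1, encoded by Nfe2l1.

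The series measured nascent RNA by TT-seq, in which RNA made during a 5 min pulse of 4-thiouridine is isolated and sequenced, in E14 mouse embryonic stem cells grown without feeders in serum and LIF with the GSK inhibitor CHIR99021 and the MEK inhibitor PD0325091. All cells carried osTIR1 integrated in the genome, the plant adaptor that lets auxin trigger degradation of a protein bearing an auxin-inducible degron. In the tagged cells the Supt16 gene carried a C-terminal mini-AID degron and a triple V5 tag. Supt16 encodes SPT16, which with SSRP1 forms FACT, a histone chaperone that handles nucleosomes during transcription. In the washout experiment 2 tagged lines, named 10E and 11D in the count table, received 500 nM 3-IAA (auxin, called IAA below) or the ethanol vehicle (EtOH) for 12 h, and then fresh medium for 24 h. Each line gave 2 libraries per treatment, so 4 IAA libraries were compared with 4 EtOH libraries. The time course had 22 libraries, 2 for each of 11 groups. Cells without the tag were taken untreated (0 h) or given IAA for 3, 6 or 12 h, and tagged cells were taken untreated or given IAA or EtOH for the same times. Its data were used as the authors' comparison tables, which give 1 log2 fold change per gene and time and do not state which groups were set against each other, so their signs are called positive and negative here. Each tagged line is a single clone, and the groups follow the sample titles, since the tag and treatment fields of many time-course libraries go against them. Which of the titles' clone numbers is 10E and which is 11D was not stated.

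The washout libraries held 6547992 to 16554314 counts over genes. Of 8 embryonic stem cell markers, 7 were present, from a median of 44.6 CPM for Dppa5a to 1450 CPM for Esrrb. Sox2 was at 0 in all 8 libraries, and its gene lies within Sox2ot on the same strand in the count table. The fibroblast markers Col1a1, Col1a2, Col3a1, Dcn and Lum did not exceed 0.981 CPM in any library. CPM here is a gene's count over its library's size after TMM scaling, which sets libraries on 1 scale from the bulk of their genes. Supt16 RNA lay between 56.9 and 90.5 CPM in EtOH and between 91.5 and 132 CPM in IAA (log2 0.53, FDR 0.0658, edgeR). Because the degron acts on the protein, this RNA does not check the treatment labels.

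The members lie on 16 chromosomes. Their gene features had a median length of 11.8 kb, against 17.7 kb for the other 21447 protein-coding genes, and ran from 0.837 kb for Psme2b to 109 kb for Psme4. Exons covered a median of 22.8% of a member's length and 20.3% of the other genes' length. Another gene on the same strand overlapped 10 members, among them Psmg3 over 85.5% and Psme2b over all of its length, so reads from these stretches could not be given to 1 gene.

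The promoters below are shown because their genes carried the calls described afterwards: Psma5, Psmc4, Psmd2 and Psmd11 rose in the washout, and Psma3 and Psmd8 were called in the time course. Each runs 5′ to 3′ on the gene's own strand, from 250 bases before to 50 bases after the RefSeq start (GRCm38.p6). Capitals mark matches on either strand to 3 letter patterns. These are CCAAT, the box bound by NF-Y, TGANNNNGC, the core of the element bound by NRF1 and NRF2, and TATAAA, the TATA box.
Psma5, chr3:108256676-108256975, plus strand: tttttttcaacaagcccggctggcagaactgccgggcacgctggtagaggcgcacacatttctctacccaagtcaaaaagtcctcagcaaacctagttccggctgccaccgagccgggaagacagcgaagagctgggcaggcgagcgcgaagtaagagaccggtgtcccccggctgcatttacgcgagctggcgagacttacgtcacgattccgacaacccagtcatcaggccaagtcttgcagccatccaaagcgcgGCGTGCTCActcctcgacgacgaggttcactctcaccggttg
Psmc4, chr7:28050043-28050342, minus strand: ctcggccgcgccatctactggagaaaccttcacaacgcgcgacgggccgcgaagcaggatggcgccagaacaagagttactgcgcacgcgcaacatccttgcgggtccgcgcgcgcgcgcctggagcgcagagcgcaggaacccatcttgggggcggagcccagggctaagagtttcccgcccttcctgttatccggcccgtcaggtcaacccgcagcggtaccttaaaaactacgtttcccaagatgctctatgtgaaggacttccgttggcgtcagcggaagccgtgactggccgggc
Psmd2, chr16:20651402-20651701, plus strand: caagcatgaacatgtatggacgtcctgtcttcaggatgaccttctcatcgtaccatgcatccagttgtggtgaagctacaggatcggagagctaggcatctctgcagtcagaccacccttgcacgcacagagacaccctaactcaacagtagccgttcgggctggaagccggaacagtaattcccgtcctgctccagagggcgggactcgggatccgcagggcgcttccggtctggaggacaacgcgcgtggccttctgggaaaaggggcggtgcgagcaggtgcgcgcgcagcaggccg
Psmd11, chr11:80428365-80428664, plus strand: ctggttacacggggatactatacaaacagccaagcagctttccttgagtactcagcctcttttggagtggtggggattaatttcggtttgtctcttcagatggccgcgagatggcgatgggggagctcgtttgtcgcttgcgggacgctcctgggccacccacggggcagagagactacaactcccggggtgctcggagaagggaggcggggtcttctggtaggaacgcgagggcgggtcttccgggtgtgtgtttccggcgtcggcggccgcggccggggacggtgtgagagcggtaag
Psma3, chr12:70974373-70974672, plus strand: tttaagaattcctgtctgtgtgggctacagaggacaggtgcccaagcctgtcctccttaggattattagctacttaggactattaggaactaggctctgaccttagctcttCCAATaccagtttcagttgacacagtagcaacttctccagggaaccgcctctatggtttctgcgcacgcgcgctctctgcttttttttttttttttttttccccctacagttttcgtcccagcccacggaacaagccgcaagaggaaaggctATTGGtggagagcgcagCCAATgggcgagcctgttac
Psmd8, chr7:29180624-29180923, minus strand: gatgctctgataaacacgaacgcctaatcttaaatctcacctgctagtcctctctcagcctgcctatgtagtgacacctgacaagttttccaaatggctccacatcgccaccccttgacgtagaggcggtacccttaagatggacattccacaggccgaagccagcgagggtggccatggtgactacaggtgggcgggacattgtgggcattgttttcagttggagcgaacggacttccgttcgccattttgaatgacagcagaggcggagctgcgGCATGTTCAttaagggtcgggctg

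The Psma5 promoter held 1 TGANNNNGC match, on the opposite strand, beginning 9 bases into the transcript. The Psma3 promoter held 3 CCAAT matches, beginning at −139 and 31 relative to the start on the gene's strand and at 14 on the opposite strand. The Psmd8 promoter held 1 TGANNNNGC match, on the opposite strand, beginning 27 bases into the transcript. None of the 3 patterns occurred in the windows of Psmc4, Psmd2 or Psmd11. RefSeq promoters were matched for 41 of the 49 members, with 44 windows in all, and none was matched for Psmd3, the remaining gene that rose in the washout. TGANNNNGC occurred in 25 of the 44 members' windows (56.8%) and in 41.3% of all 32851 promoters of the same length. CCAAT occurred in 14 members' windows (31.8%), against 37.4% of all promoters. TATAAA occurred in 4 (9.09%), against 13.6%. The members' windows had a median GC content of 57.3%, and all promoters 52.7%. These are letter matches only and were not tested as binding sites.

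Before any contrast, the nascent level of the members in the EtOH libraries was set out per length of gene, as CPM per kb of the whole gene feature (mean of 4 libraries). Psmb6, a catalytic beta subunit, was the highest at 11.8 ± 1.5 CPM per kb (SD, n = 4), and its lowest library, at 9.73, lay above the highest library of Psmb4, the next gene, at 7.60. Psmb4, a structural beta subunit, stood at 6.36 ± 1.25 CPM per kb. Further down the order neighbours overlapped: Psmb4, Psmd8 at 5.44, Psmc5 at 5.42 and Psmd7 at 4.87 CPM per kb did not differ beyond the spread of their libraries. The lowest of the 45 genes tested was Psmd9, a 19S assembly chaperone, at 0.363 ± 0.0488 CPM per kb. The Psmd9 feature is 80.7 kb long, and the RefSeq start lies 58.8 kb inside it. If all its counts came from the 21.9 kb past that start, Psmd9 would stand at 1.34 CPM per kb, and Psmd10, another 19S chaperone, would be the lowest at 0.438. The RefSeq start of Psma6 likewise lies 14.6 kb inside its feature for 1 of its 2 promoter windows. By role, the median was 3.71 CPM per kb for the 7 constitutive beta subunits, 4.64 for the 3 non-ATPase base subunits, 3.00 for the 8 lid subunits and 2.99 for the 6 ATPases. It was 2.06 for the 8 alpha subunits, 1.44 for the 4 chaperones of the 20S core and 0.438 for the 3 chaperones of the 19S cap, which would be 1.34 with the shorter Psmd9. Subunits that stand in the particle in equal number thus differed in CPM per kb of gene feature, for example Psmb6 and Psmb2, the latter at 2.05. Exons cover 75.1% of the 2.49 kb of Psmb6 and 3.75% of the 32.1 kb of Psmb2. The part of exonic reads, which may hold some mature RNA, in this order was not tested.

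**Figure D1:**
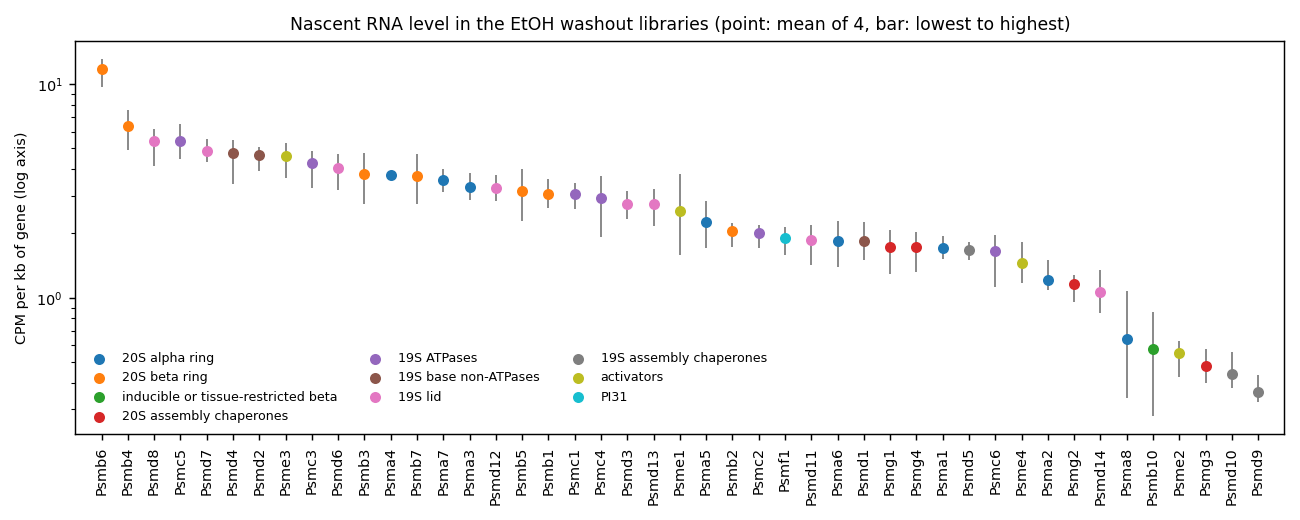
Nascent RNA level of the 45 proteasome genes tested, in the EtOH washout libraries, as CPM per kb of gene feature on a log axis. Points are means of 4 libraries, bars run from the lowest to the highest library and colours give the role. Psmb6 stands apart at the top, and most neighbours further down overlap.

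After 24 h of washout, 5 proteasome genes were higher on the TMM scale in IAA than in EtOH libraries, and none was lower. They were Psma5 of the alpha ring, Psmc4 of the ATPase ring, the base scaffold Psmd2, and the lid subunits Psmd3 and Psmd11, with log2 fold changes between 0.58 and 0.75. Of the 49 members, 45 had enough counts to be tested with edgeR's quasi-likelihood test, and calls were made at a Benjamini-Hochberg FDR of 0.05 over all 15110 genes tested. Among all genes 8.83% were called higher and 7.6% lower, so 5 of 45 higher is close to the background. The 45 members had a median log2 fold change of 0.21, against −0.05 for all genes, and 31 of them were positive, against 46.4% of all genes. By library, the members' median log2 CPM was 5.09 to 5.35 in EtOH and 5.36 to 5.58 in IAA. The ranges nearly met, and the pooled SD within a treatment was 0.109. In each line and treatment the first replicate was above the second. In bulk RNA a change in the level per cell cannot be told apart from a change in the share of cells that make the RNA.

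Complete separation of the libraries, with all 4 IAA values above all 4 EtOH values, was seen for 13 of the 45 members and for 11.8% of all genes. The reverse, all IAA values below all EtOH values, was seen for 0 members and for 11.3% of all genes. At an unadjusted p of 0.05 in edgeR, 13 members were higher, where 15.7% of all genes were, and 0 lower, where 16.6% were. DESeq2 called 9 of 47 members higher, against 10.1% of all genes, and 0 lower, against 7.55%. Ribosomal RNA loci took 5.75 to 9.27% of the counts in EtOH libraries and 20.9 to 29.4% in IAA libraries. The members together held 0.249 to 0.285% of all counts in EtOH and 0.195 to 0.243% in IAA. Without the ribosomal loci and other loci that held over 1% of a library, their share was 0.275 to 0.313% in EtOH and 0.329 to 0.347% in IAA. The members' share was thus lower in IAA over all counts and higher without these loci. The TMM scale is relative as well and gives no amount of RNA per cell. With the ribosomal loci left out the same 5 genes were called.

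**Figure D2:**
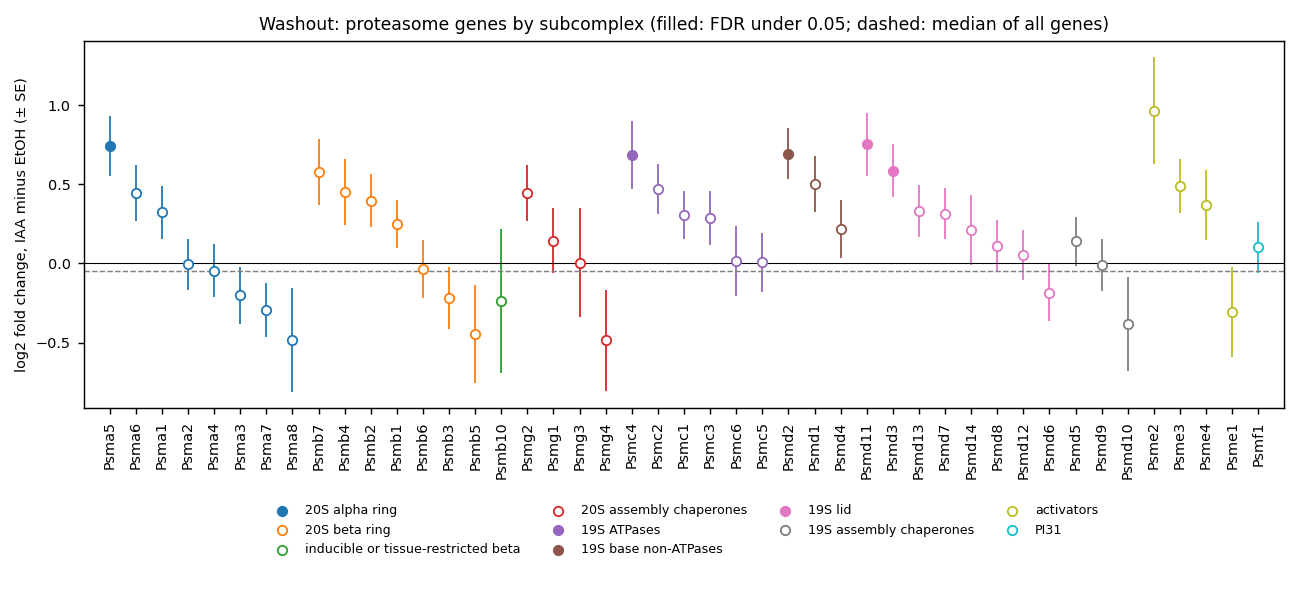
Log2 fold change, IAA minus EtOH, with its standard error for the 45 proteasome genes tested in the washout, grouped by role. Filled points passed an FDR of 0.05, and the dashed line marks the median of all genes at −0.05. The 5 filled points lie in the alpha ring, the ATPases, the base and the lid, all above 0.

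In the alpha ring, which forms the gate of the core, 1 of 8 genes rose. Psma5 stood at 61.7 and 39.5 CPM in the EtOH libraries of line 10E, and at 65.2 and 42.5 CPM in those of line 11D. In the IAA libraries it stood at 93.2 and 87.8 CPM in 10E and at 79.6 and 88.7 CPM in 11D. Every IAA library was above every EtOH library, and within EtOH the first replicate of each line was above the second. The log2 fold change was 0.74 ± 0.19 (SE, n = 4 per group, FDR 0.0195, edgeR). The call was lost without EtOH 10E replicate 2 (FDR 0.0595) or IAA 10E replicate 1 (FDR 0.0565). The ring had a median of −0.03, and its lowest member was Psma8, the alpha subunit known from testis, at −0.48 (FDR 0.332). Psma8 ran from 19.1 to 60.2 CPM in EtOH and from 18.2 to 34.3 CPM in IAA, with overlapping groups. Psma3, called at 6 and 12 h of the time course, stood at 68.1, 62.5, 83.6 and 72.5 CPM in EtOH and at 54.1, 81.7, 59.1 and 54.3 CPM in IAA. Its groups overlapped, and its log2 fold change of −0.20 ± 0.18 did not pass (FDR 0.463).

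In the beta ring, which holds the peptidase sites, none of the 7 constitutive genes passed in either direction. Psmb7, which carries the trypsin-like site, was the highest at 0.58 (FDR 0.079), with 154 to 264 CPM in EtOH and 268 to 347 CPM in IAA, groups that did not overlap. Psmb5, which carries the chymotrypsin-like site, was the lowest at −0.44 (FDR 0.343). Its CPM were 15.6 and 12.8 in 10E and 12.2 and 8.96 in 11D after EtOH. After IAA they were 8.04 and 4.08 in 10E and 11.7 and 12.2 in 11D, so the groups overlapped in 11D and did not in 10E. Psmb6, which carries the caspase-like site, had a log2 fold change of −0.04.

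The inducible and tissue-restricted beta genes were near the detection limit. Psmb8, a subunit of the immunoproteasome, had 0 counts in all 4 EtOH libraries, where the limit of 3 counts corresponds to 0.138 to 0.231 CPM, and 0, 0, 3 and 4 counts in the IAA libraries. Psmb9, another immunoproteasome subunit, had 2, 9, 8 and 4 counts in EtOH and 9, 7, 13 and 17 counts in IAA. On the CPM scale it ran from 0.155 to 0.439 in EtOH and from 0.922 to 1.89 in IAA, without overlap, but it was below the count filter of the main test. DESeq2 and the authors' deposited table for the washout both called Psmb9 higher. Psmb10, the third immunoproteasome subunit, was tested and stood at −0.24 (FDR 0.756). Psmb11, the thymus subunit, had between 1 and 7 counts in every library and was not tested.

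Of the 6 ATPases that drive unfolding, 1 rose and all 6 had a positive sign, with a median of 0.30. Psmc4 stood at 31.3, 22.3, 28.0 and 16.2 CPM in EtOH and at 47.7, 38.3, 33.3 and 38.0 CPM in IAA. The groups did not overlap, with the lowest IAA library just above the highest EtOH library. Its log2 fold change was 0.68 ± 0.21 (FDR 0.0445, edgeR), close to the threshold. With 1 library left out the call held only without EtOH 10E replicate 1 or IAA 11D replicate 1, and the FDR was 0.0578 to 0.127 without any of the other 6. Psmc2 at 0.47 (FDR 0.0565) narrowly missed, and Psmc5 was the lowest at 0.01.

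The 3 non-ATPase base subunits were all positive, with a median of 0.50. Psmd2, the scaffold that docks substrate shuttles, stood at 59.8, 58.4, 54.4 and 45.9 CPM in EtOH and at 106, 87.1, 77.5 and 83.2 CPM in IAA. The lowest IAA library was thus well above the highest EtOH library. Its log2 fold change was 0.69 ± 0.16 (FDR 0.0137, edgeR), and Psmd2 was called after leaving out each of the 8 libraries in turn, the only member for which this held. Psmd1, the second scaffold, was at 0.50 (FDR 0.0701) and the ubiquitin receptor Psmd4 at 0.22 (FDR 0.433).

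In the lid, whose subunit Psmd14 cleaves ubiquitin chains from substrates, 2 of 8 genes rose and 7 of 8 had a positive sign. Psmd11, a lid scaffold subunit, stood at 75.1 and 63.4 CPM in 10E and at 97.7 and 95.2 CPM in 11D after EtOH. After IAA it stood at 155 and 171 CPM in 10E and at 124 and 108 CPM in 11D. The groups did not overlap, and the IAA libraries of 10E were the highest. The log2 fold change was 0.75 ± 0.20 (FDR 0.0229, edgeR). Psmd3, also a lid scaffold subunit, stood at 38.5, 35.9, 42.3 and 31.3 CPM in EtOH and at 66.1, 58.2, 49.4 and 48.4 CPM in IAA, again without overlap (0.58 ± 0.17, FDR 0.0325, edgeR). Psmd6 was the lowest of the lid at −0.19 (FDR 0.507), Psmd8 stood at 0.11 (FDR 0.681) and Psmd14 at 0.21 (FDR 0.547). Psmd11 was not called without any 1 of the 4 libraries of 10E (FDR 0.0551 to 0.07), nor was Psmd3 without any of these or EtOH 11D replicate 2 (FDR 0.0545 to 0.0988).

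None of the activators, chaperones or the inhibitor PI31 passed. Psme2, a subunit of the PA28 activator, had the largest log2 fold change of the 45 members tested at 0.96 ± 0.34 (FDR 0.0693, edgeR), from 2.01, 2.22, 2.30 and 1.56 CPM in EtOH to 6.08, 4.08, 3.23 and 2.67 CPM in IAA. Its groups did not overlap. The untested Psmb9 had a larger ratio, with means of 0.300 CPM in EtOH and 1.47 CPM in IAA. Psme1, the partner of Psme2, stood at −0.31 (FDR 0.483), the nuclear activator gene Psme3 at 0.49 (FDR 0.0687), and Psme4, which encodes PA200, at 0.37 (FDR 0.274). Psme2b had 0 counts in every library, and other genes overlap its whole length. Among the 19S chaperones Psmd5 was the highest at 0.14 and Psmd10 the lowest at −0.38, with Psmd9 at −0.01. Among the 20S chaperones Psmg2 was the highest at 0.44 (FDR 0.105) and Psmg4 the lowest at −0.49 (FDR 0.316). PI31, encoded by Psmf1, stood at 0.10.

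**Figure D3:**
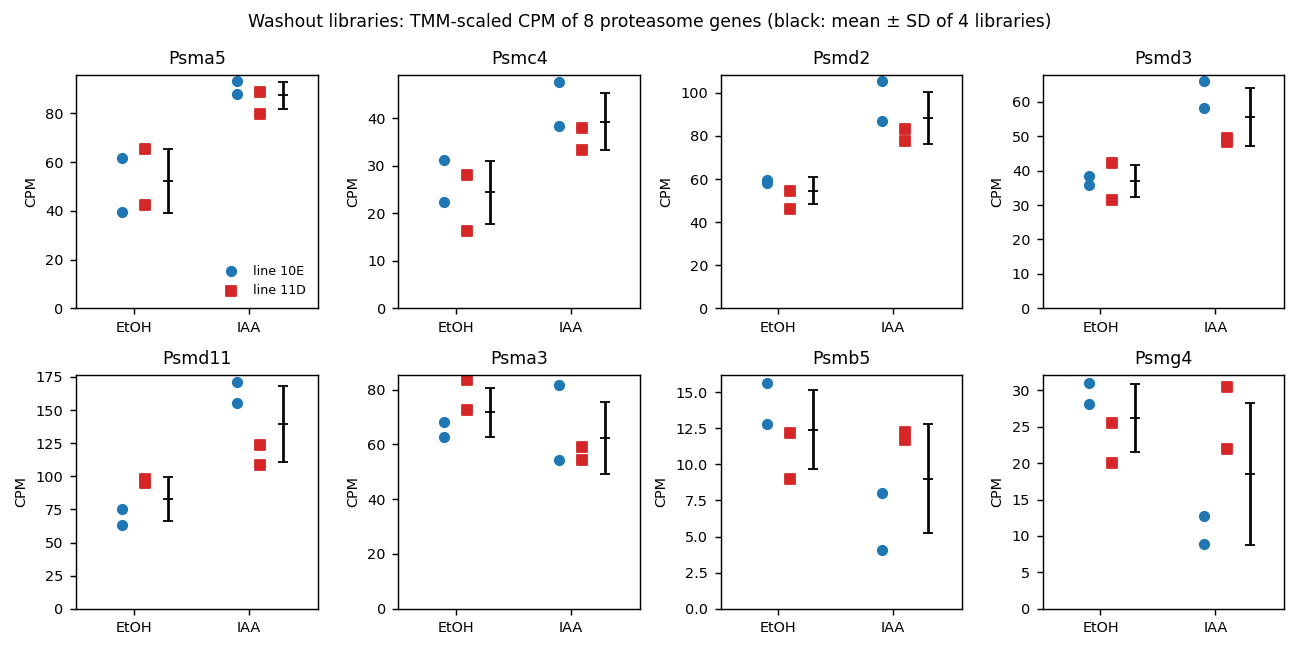
CPM of 8 proteasome genes in each washout library, with circles for line 10E and squares for line 11D, and the mean ± SD of the 4 libraries of each treatment in black. Psma5, Psmc4, Psmd2, Psmd3 and Psmd11 separate by treatment, while Psmb5 and Psmg4 fall with IAA in 10E and overlap in 11D.

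The lines were also fitted one at a time, with 2 libraries against 2. In 10E, 5 members were higher (Psma5, Psmd2, Psmd3, Psmd11 and Psme4), where 11.4% of all genes were, and 2 were lower, Psmb5 and Psmg4, where 10.5% were. In 11D, 0 members were called in either direction, where 1.76% of all genes were higher and 1.04% lower. At an unadjusted p of 0.05, 5 members were higher in 11D, where 9.32% of all genes were, and 0 lower, where 9.62% were. Fitted with the line as a block, the comparison called the same 5 genes as without it.

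The difference between the lines was itself tested as a line by treatment interaction. It called 0 members and 0% of all genes in edgeR at an FDR of 0.05, with 4 members and 2250 of 15110 genes at an unadjusted p of 0.05. DESeq2 called 136 of 12675 genes and 1 of 43 members, Psmg4 (adjusted p = 0.0451). Psmg4, a chaperone of the alpha ring, stood at 31.0 and 28.1 CPM after EtOH and 12.8 and 8.83 CPM after IAA in 10E. In 11D it stood at 25.5 and 20.004 CPM after EtOH and 22.0 and 30.5 CPM after IAA. It was thus lower with IAA in both 10E libraries and overlapped in 11D, with log2 fold changes of −1.43 and 0.21 and an interaction of 1.67 ± 0.38 (FDR 0.261, edgeR). The other 3 members under an unadjusted p of 0.05 were Psmb5 (interaction 1.43), Psmd11 (−0.97) and Psme4 (−0.98), given as 11D minus 10E on the log2 scale. Psmd11 had a log2 fold change of 1.27 in 10E and 0.27 in 11D.

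Genes that work with the proteasome were counted from 3 lists, where 8.83% of all genes were higher and 7.6% lower. Of 11 partner genes, which attach to or help build the particle, 1 was higher and 0 lower: Zfand2a, which encodes a proteasome-binding protein induced by arsenite, at 0.74 (FDR 0.0157). Of 15 genes of control and substrate delivery, 1 was higher and 0 lower: Vcp, the segregase that extracts ubiquitylated proteins, at 0.57 (FDR 0.0315). Nfe2l1 stood at −0.43 (FDR 0.108). Of 5 ubiquitin and E1 genes tested, Uba1, the main ubiquitin-activating enzyme, was higher at 0.79 (FDR 0.0255) and Rps27a, a ubiquitin-ribosomal protein fusion gene, lower at −0.73 (FDR 0.0144).

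In the time course, few members passed at any time. The authors' deposited tables gave an adjusted p for 46 members at 0 h, 43 at 3 h, 44 at 6 h and 47 at 12 h. Psmd8 was positive at 3 h, and Psma3 was negative at 6 h and at 12 h. No other member passed an adjusted p of 0.05 in the authors' deposited gene tables. Their log2 fold changes are smaller than their p-values imply: over genes, the median ratio of fold change over standard error to the z of the p-value was 0.00217 at 0 h, 0.347 at 3 h, 0.49 at 6 h and 0.772 at 12 h, where 1 is the value of an unshrunken estimate with a Wald p. Sizes therefore cannot be compared between times.

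At 0 h, 0 members passed in the authors' deposited table, where 0.0201% of all genes were positive and 0.355% negative. At 3 h, 1 of 43 was positive and 0 were negative in the authors' deposited table, where 0.531% of all genes were positive and 0.0458% negative. At 6 h, 0 of 44 were positive and 1 was negative in the authors' deposited table, against 1.71% and 1.39% of all genes. At 12 h, 0 of 47 were positive and 1 was negative in the authors' deposited table, against 8.58% and 12.1% of all genes. The single calls at 3 and 6 h stood among few calls over all genes, whereas at 12 h the members were called at 2.13% against 20.7% of all genes. At an unadjusted p of 0.05 the authors' deposited table for 3 h held 16 positive and 0 negative members, where 8.87% and 3.61% of all genes were. At 6 h the authors' deposited table held 4 and 3, where 10.1% and 8.56% were. At 12 h it held 2 and 3 in the authors' deposited table, where 14.7% and 18.2% were. The members' median log2 fold change was 0.08, 0.02 and 0.13 at these times in the authors' deposited tables, against −0.00, −0.00 and 0.01 for all genes.

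**Figure D4:**
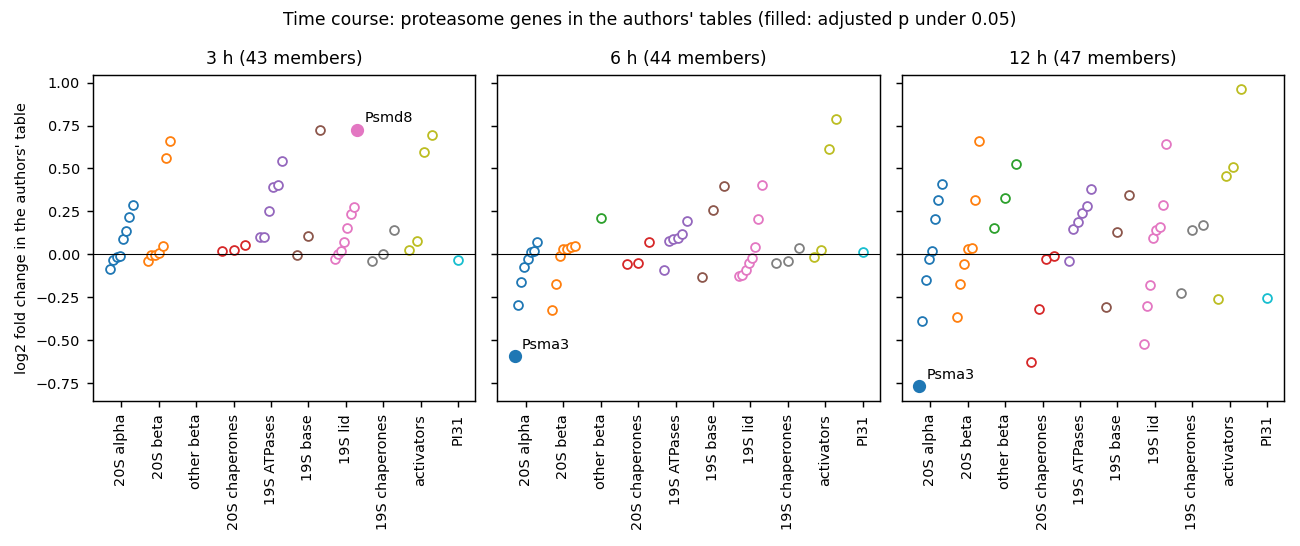
Log2 fold change of the proteasome genes in the authors' deposited tables at 3, 6 and 12 h, by role, with 1 point per gene that had an adjusted p. Filled points passed 0.05: Psmd8 at 3 h, and Psma3 at 6 and 12 h.

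In the authors' deposited tables Psma3, an alpha ring subunit, had log2 fold changes of −0.03 at 3 h, −0.59 ± 0.19 at 6 h (adjusted p = 0.0131) and −0.77 ± 0.24 at 12 h (adjusted p = 0.00336), with the tables' own standard errors. It was the lowest member at 12 h. The other 7 alpha subunits lay between −0.39 and 0.41 at 12 h in the authors' deposited table, and none passed. Psmd8, a lid subunit, stood at 0.73 ± 0.26 at 3 h (adjusted p = 0.0497), 0.21 at 6 h and 0.64 at 12 h in the authors' deposited tables. The 3 h call was lost when the p-values were adjusted again over every gene with a p, or over those whose mean count was 10 or more, each of which gave 0 positive members. Just outside the threshold of the authors' deposited table for 3 h were Psme3 at 0.70 (adjusted p = 0.0521), Psmd2 at 0.73 (0.0624) and Psmb6 at 0.66 (0.0941). Psme2 was the highest member at 12 h in the authors' deposited table, at 0.96 ± 0.57 (adjusted p = 0.0613).

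By role, all 6 ATPases had a positive sign at 3 h in the authors' deposited table, from 0.10 to 0.55. At 12 h 5 of 6 had one, and none of the 6 passed at either time. Each ATPase value at 12 h was smaller than its standard error, the largest being 0.38 ± 0.43 for Psmc4. The lid ran from −0.03 to 0.73 at 3 h and from −0.52 for Psmd14 to 0.64 for Psmd8 at 12 h in the authors' deposited tables. All 4 chaperones of the 20S core had a negative sign at 12 h in the authors' deposited table, and none of the 4 passed. They ran from −0.63 ± 0.84 for Psmg3, with a mean count of 8.52, to −0.01 ± 0.30 for Psmg4. Psmg2 stood at −0.03 ± 0.27, so these signs carry little weight. The genes that rose in the washout had no common sign at 12 h in the authors' deposited table: Psmc4 stood at 0.38, Psmd2 at 0.35, Psmd3 at 0.09, Psma5 at −0.15 and Psmd11 at −0.30, and none passed.

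Short members had the more positive values. At 3 h, 15 of 15 members under 10 kb were positive in the authors' deposited table, with a median of 0.29, and 17 of 28 longer members were, with a median of 0.01. At 6 h, 12 of 16 members under 10 kb and 12 of 28 longer members were positive in the authors' deposited table, with medians of 0.05 and −0.04. At 12 h, 18 of 19 members under 10 kb and 10 of 28 longer members were positive in the authors' deposited table, with medians of 0.32 and −0.05. The exception under 10 kb at 12 h was Psmg3, at −0.63 ± 0.84 with a mean count of 8.52, of which 85.5% is overlapped by another gene. Other genes under 10 kb had medians of 0.07, 0.09 and 0.20 at 3, 6 and 12 h in the authors' deposited tables. Other genes of 10 kb or more had medians of −0.01, −0.03 and −0.06 in the authors' deposited tables. Spearman's rho between log2 fold change and gene length across members was −0.75 at 3 h (n = 43), −0.543 at 6 h (n = 44) and −0.682 at 12 h (n = 47) in the authors' deposited tables. Across all other genes it was −0.569, −0.449 and −0.319 in the authors' deposited tables. Signed z-scores of the tables' p-values in place of the fold changes gave −0.766, −0.549 and −0.669 for the members. For all other genes they gave −0.572, −0.453 and −0.309. The share of a gene that is exon was lower in longer members (rho −0.849 with length, n = 49). Its rho with log2 fold change was 0.709 for the members at 3 h and 0.657 at 12 h in the authors' deposited tables, against 0.566 and 0.279 for all other genes. These genes share libraries, so the values are descriptions, and the part of exonic reads, which may hold some mature RNA, was not tested. In the washout, rho with length was 0.236 over the 45 members and 0.21 over 15065 other genes.

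**Figure D5:**
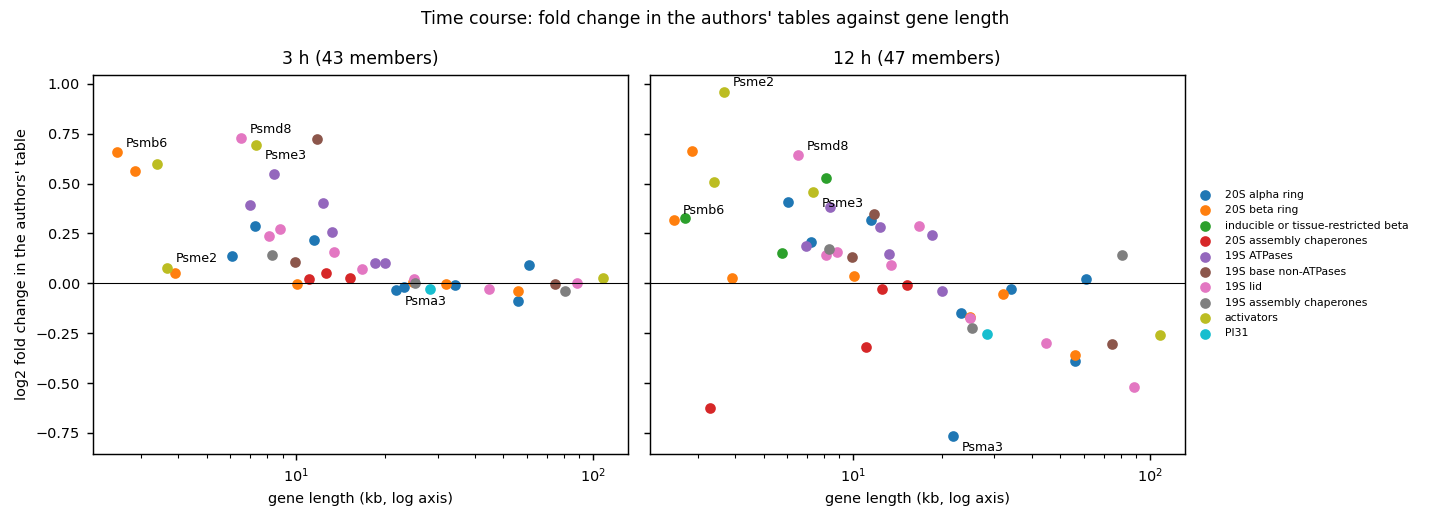
Log2 fold change in the authors' deposited tables at 3 and 12 h against gene length in kb on a log axis, with 1 point per proteasome gene coloured by role. Short genes such as Psmb6 and Psmd8 lie above 0 and most genes over 20 kb lie near or below it; Psma3 is the lowest point at 12 h.

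The partner lists were counted at each time in the same way. In the authors' deposited table for 3 h, Ubqln2, a shuttle that brings ubiquitylated proteins to the proteasome, was positive at 1.03 (adjusted p = 0.0408), as was Uba1 at 0.78 (adjusted p = 0.0408). Of all genes there, 0.531% were positive. None of the 31 listed genes with an adjusted p passed at 6 h in the authors' deposited table, where 1.71% of all genes were positive and 1.39% negative. In the authors' deposited table for 12 h, 12.1% of all genes were negative and 8.58% positive. Of 11 partner genes, 2 were negative in the same authors' deposited table, the ubiquitin ligase gene Ube3c at −1.10 and the deubiquitinase gene Usp14 at −0.62. Of the 15 genes of control and delivery, 5 were negative and 0 positive at 12 h in the authors' deposited table: the shuttle gene Rad23b at −0.94, the NF-Y genes Nfya at −0.93, Nfyb at −0.75 and Nfyc at −0.82, and Nfe2l2, which encodes NRF2, at −0.81. Nfe2l1 stood at 0.31 (adjusted p = 0.396) in the same authors' deposited table.

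Promoter-upstream transcripts (PROMPTs), short RNAs made upstream of a gene's start, were listed for 39 of the 49 members in the authors' deposited tables. In the authors' deposited table at 12 h, 18 members had an adjusted p and 1 passed, Psmd3, at 2.67 ± 0.53 (adjusted p = 3.43e-05, mean count 19.7). Of all genes with an adjusted p there, 3.11% were positive and 1.93% negative. In the authors' deposited tables the Psmd3 PROMPT was at 2.04 ± 0.73 at 6 h (adjusted p = 0.0964), while the Psmd3 gene itself stood at 0.40 at 6 h and 0.09 at 12 h. No member passed at 0, 3 or 6 h in the authors' deposited PROMPT tables, where 0.00821%, 0% and 0.122% of the genes with an adjusted p did. The other 17 members with an adjusted p at 12 h did not pass.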

How the data were processed

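TT-seq libraries of mouse embryonic stem cells were analysed: 8 washout libraries as a count table and 22 time-course libraries as comparison tables. Per the file headers, the authors' counts were made with featureCounts 2.0.1, per gene feature rather than per exon. Per the submitters' processing notes, STAR, deepTools and the build mm10 were used. The authors' deposited time-course tables give for each gene a mean normalised signal, a log2 fold change with standard error, and p-values before and after adjustment; how they were computed is not given in the sources used here. All 49 members had the coordinates of GENCODE M21.

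Washout counts were tested in R 4.3.3 with edgeR 4.0.16 (TMM scaling, filterByExpr, robust quasi-likelihood test, Benjamini-Hochberg over all genes tested, FDR 0.05), two-sided. The script was tested on simulated data. DESeq2 1.42.0 served as an alternative. Separate cultures are not recorded in the labels, so the p-values reflect only variation among these libraries, which may be technical. The 2 lines occur in both treatments by design. No pair of libraries of 1 treatment agreed within sampling noise. Genes named with values were those past a threshold, the highest and lowest washout fold change of each role, the highest and lowest level per kb, and the highest and lowest 12 h value; a few just outside a threshold, Psmb9 and Nfe2l1 were added after their values were seen. The members and lists were chosen with earlier results of these data known. Enhancer and DNase-hypersensitive site tables were not used here.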

Additional observations from a re-analysis of the deposited data

Results flagged for a closer look

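The CPM of 23 named members were screened in the 4 EtOH and the 4 IAA libraries, 46 groups in all, for a library set apart from the other 3 by most of the group's range; chance marks about 1 in 20 such groups. Of these, 3 were marked, all among the IAA libraries. Psmb10 stood at 2.16 CPM in replicate 1 of line 10E, above the others. Psmd5 stood at 38.3 CPM in replicate 2 of line 11D, below the others. Psmd9 stood at 24.6 CPM in replicate 2 of line 10E, below the others. None of these 3 genes passed the washout test.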

How the results depend on the processing

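Over 18 alternatives the members' median washout log2 fold change stayed positive, between 0.14 and 0.27. The count of members called higher, 5 in the main test, became 9 with DESeq2 and 0 in line 11D alone. It ranged from 1 to 5 when 1 library was left out. It was 1 (Psmd2) without IAA 10E replicate 1 and 2 (Psmb9 and Psmd2) without EtOH 10E replicate 2. Without IAA 10E replicate 2 it was 3 (Psma5, Psmb9 and Psmd2). The genes behind these counts were thus not always among the 5 of the main test. Psmb9, below the count filter of that test, was also called without EtOH 10E replicate 1 or either EtOH library of 11D. Psme2 was called without IAA 11D replicate 2. With a replicate block (line and number) the count was 2, Psma5 and Psmd2. Same-numbered libraries deviated together in 1 of 4 pairs only (correlations 0.322, −0.481, −0.309 and −0.0143). With deviations taken from the mean of only 4 libraries per treatment, these values cannot decide whether the numbers pair the libraries. Members called lower were 2 in line 10E alone and 0 in all other settings. The interaction called 1 member, Psmg4, with DESeq2 (1 of 43 members, 136 of 12675 genes) and with no count filter (1 of 48 members, 421 of 31329 genes). Leaving out loci over 1% of a library, an alternative chosen after seeing the data, gave 6 members higher. In the time course, an adjusted p of 0.1 gave 4 positive members at 3 h (Psmb6, Psmd2, Psmd8, Psme3), 1 at 6 h and 1 at 12 h, where 1.45%, 3.36% and 11.8% of all genes were positive, and 2 negative at 12 h, where 15.5% were. Adjusting over every p, or over genes with a mean of at least 10, gave 0 positive members at 3 h; the Psma3 calls were kept. The cause of these shifts was not tested. Depth limits Psmb8, Psmb9 and Psmb11, which had at most 17 counts in any library.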
